A study of Mus musculus with 18 samples.

Results

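The cadherin superfamily was followed in sorted marrow B cells of mice that had lost one or both intact alleles of Smchd1. Members were taken by gene symbol (Cdh followed by a number, Pcdh, Fat1 to Fat4, Dchs and Celsr) from the autosomal rows of the deposited count tables. This gave 65 of 25965 rows, of which 24 lie in the clustered protocadherin loci of chromosome 18 and 41 lie elsewhere. A further 2 rows that match the pattern are X-linked and were left out.

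Cadherins are calcium-dependent adhesion proteins of the cell surface. Classical cadherins such as E-cadherin join like cells and bind catenins inside the cell. Clustered protocadherins are arranged in an alpha, a beta and a gamma array, and single neurons switch on different sets of them by promoter choice, which gives each neuron a surface identity. Fat and Dachsous cadherins are giant proteins of growth control and planar polarity, and Celsr proteins are seven-pass cadherins of planar cell polarity. SMCHD1 is a chromatin protein of the SMC family that takes part in silencing of the inactive X chromosome, some imprinted genes and clustered protocadherins.

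The cells were CD45.2+ B220+ Mac1- marrow cells of C57BL/6 mice aged 12 to 16 months. All animals carried 1 copy of the Vav-Cre transgene (Vav.Cre[T/+]), a driver of recombination in the blood lineages. The controls were Smchd1[del/+], with 1 deleted allele, and the compared animals were Smchd1[del/del]. No group had 2 intact alleles. Females gave 10 libraries, 5 of each genotype, and males gave 8, with 4 of each genotype. The sample titles carry a different number for each library, and replicate numbers here only name a library; where libraries are not from separate animals, the p-values measure only the spread between these samples.

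Total counts ran from 9788112 to 29405395 per library, so 1 CPM (a read count relative to the library total, scaled by TMM factors) was worth between 9.60 and 29.7 reads. Smchd1 itself lay between 231 and 269.8 CPM in female heterozygous and between 128 and 171.2 CPM in female del/del libraries, and between 277 and 328 CPM and between 163 and 199 CPM in males, with no overlap in either sex. The 12 B cell markers summed to 8459 to 10386 CPM in every library. The 13 myeloid markers varied more, from 880 CPM in female del/del library 2 to 5209 CPM in male del/del library 3. The myeloid median log2 fold change was 0.17 in females and 0.28 in males, and 0 of the 13 were called. The part of myeloid RNA in the levels of members was not tested. The 13 genes used as markers of plasmacytoid dendritic cells, another B220+ cell, summed to 2908 to 5003 CPM. Their median log2 fold change was 0.40 in females and 0.45 in males, beside -0.0044 and 0.0013 over all rows. Over all 18 libraries 1 of the 13 was called higher, as 0.535% of rows were. At an unadjusted p under 0.05 edgeR gave 7 of them, all higher, and 6.76% of all rows in either direction. A few genes carried the sum: in female heterozygous libraries Spib was at 1759, Irf8 at 703.6 and Ly6d at 626.4 CPM. Siglech was at 239.5 and Klk1 at 23.1 CPM. How much of this sum came from B cells was not tested. The 11 erythroid markers had medians of -0.58 and -0.63. Over all 18 libraries 0 of them were called, and edgeR gave 8 an unadjusted p under 0.05, all lower in del/del. Male heterozygous library 2 stood apart from the other male heterozygous libraries. Its 13 stromal markers summed to 39.3 CPM against 14.2 to 17.7 CPM in the other male heterozygous libraries, its 11 neural and glial markers to 134.9 against 96.3 to 110.1 CPM, and its 11 erythroid markers to 858 against 487 to 615 CPM. Female libraries reached 46.2 CPM in the stromal sum and 871 CPM in the erythroid sum, so these sums set it apart only among males. Its neural and glial sum was the highest of all 18 libraries. In female heterozygous libraries Alpl, at a mean of 29.6 CPM, gave most of the stromal sum, whose median was 35.1 CPM. Of the other stromal markers, Col3a1 was at 5.20 and Sparc at 4.45 CPM in male heterozygous library 2. Their female heterozygous means were 0.207 and 0.483 CPM. Bglap went the other way, at 0 against 0.136 CPM. In male heterozygous library 2, Mbp gave 91.7 CPM of the neural and glial sum, and the neuronal gene Tubb3 reached 30.6 CPM. Of the 41 non-clustered members, 15 had their highest value of all 18 libraries in it. Among these, Cdh7, Cdh10 and Cdh12 had only 3, 3 and 1 reads. The share of all rows with their highest value in this library was not counted. For members whose estimates rest on this library, values with and without it are given. The counts of called members include this library unless stated. In these bulk samples, fewer cells of a type and less RNA per cell cannot be told apart.

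Most members were silent or near silent. Over all 18 libraries, 9 members had no read (3 clustered, 6 non-clustered), 28 had 1 to 99 reads and 28 had 100 or more. A mean of at least 1 CPM in at least 1 group was reached by 20 members, of which 6 were clustered. The filter on low counts let 27 members into at least 1 test (8 clustered, 19 non-clustered). A row with few reads in heterozygous libraries could enter only through del/del reads, so counts over tested members are descriptions and do not stand for all members.

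In females, 4 members passed the test, all higher in del/del libraries: the alpha cluster row Pcdhac1, the atypical cadherin Fat3, the non-clustered protocadherin Pcdh17 and the classical cadherin Cdh4. They were 1 of 7 clustered and 3 of 14 non-clustered members tested, whereas 0.244% of all 13501 rows tested were called higher. No member was called lower, as 0.00741% of rows were. At an unadjusted p under 0.05 edgeR gave 4 clustered and 4 non-clustered members and 4.3% of all rows. In males, 1 of 6 clustered members tested, Pcdhac1, was called higher and 0 of 15 non-clustered members were called, with 0.112% of 13413 rows called higher. Of those 15, edgeR gave 2 an unadjusted p under 0.05, as it did 3.34% of all rows, and DESeq2 called 0. No member was called lower in males or over all 18 libraries, where 0.00746% and 0.0214% of rows were. With all 18 libraries and sex as a covariate, Pcdhac1, Pcdhb5 and Cdh4 rose, 2 of 8 clustered and 1 of 19 non-clustered members tested, with 0.535% of 14017 rows called higher. Without male heterozygous library 2, the non-clustered member Cdh4 was called in males, and Cdh4, Fat3, Pcdh17 and Cdh13 were called over the remaining libraries. The median log2 fold change over tested members was 0.93 (clustered) and 0.44 (non-clustered) in females and 0.01 and 0.11 in males, beside -0.0044 and 0.0013 over all rows. The interaction of sex and genotype called 0 members and 0% of rows by edgeR, with 1 clustered and 4 non-clustered members and 1.45% of rows at an unadjusted p under 0.05, and DESeq2 called 4 rows and 0 members.

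Among the members, the row of the protocadherin alpha cluster had the smallest p in each of the 3 comparisons. Alpha genes each join 1 variable first exon to shared constant exons, and the tables hold them in a single row named Pcdhac1 (ENSMUSG00000007440, mm10, chromosome 18, 36930285 to 37187657, plus strand). This row spans the positions of all 14 alpha genes of GENCODE M21, so it cannot be told which alpha genes gave the reads. In female heterozygous libraries 1 to 5 it held 0.417, 0.425, 1.04, 0.386 and 0.505 CPM, and in female del/del libraries 9.82, 11.03, 7.81, 10.2 and 9.16 CPM. The groups were far apart, and the del/del libraries lay close together. The log2 fold change was 4.04 (SE 0.27, edgeR quasi-likelihood adjusted p = 1.39e-05).

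In male heterozygous libraries 1 to 4 the alpha row held 1.77, 1.65, 1.24 and 0.475 CPM, and in male del/del libraries 7.94, 6.56, 6.75 and 5.58 CPM. The groups did not overlap here either. The male log2 fold change was 2.39 (SE 0.31, adjusted p = 0.0179). This call was kept without heterozygous library 2 or 4 and was lost in the other 6 fits that left out a library: without heterozygous library 1 (adjusted p = 0.0554) or 3 (0.0854), or without del/del library 1 (0.104), 2 (0.0540), 3 (0.0715) or 4 (0.0538), with log2 fold changes between 2.13 and 2.57 over the 8 fits. It was also lost when the libraries' plasmacytoid dendritic marker level entered the fit (log2 fold change 2.25, with SE 0.40 and adjusted p = 0.193), a covariate chosen after seeing the data. Over all 18 libraries the row rose by 3.28 on the log2 scale (SE 0.28, adjusted p = 8.40e-07). The male difference was smaller than the female one by 1.66 on the log2 scale (SE 0.42), which did not pass the adjustment over all rows in the interaction test (unadjusted p = 0.000812, adjusted p = 1.0).

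A gene annotated on the opposite strand inside the alpha cluster, Gm10545 (37008869 to 37020679), had 0, 0, 4, 0 and 4 reads in female heterozygous and 9, 4, 14, 7 and 5 reads in female del/del libraries. In males it had 0, 2, 0 and 0 reads against 6, 2, 1 and 4 reads. Whether counting used strand is not stated in the labels, so where the alpha row and this gene overlap their reads cannot be told apart. This gene was chosen after its values were seen.

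**Figure D1:**
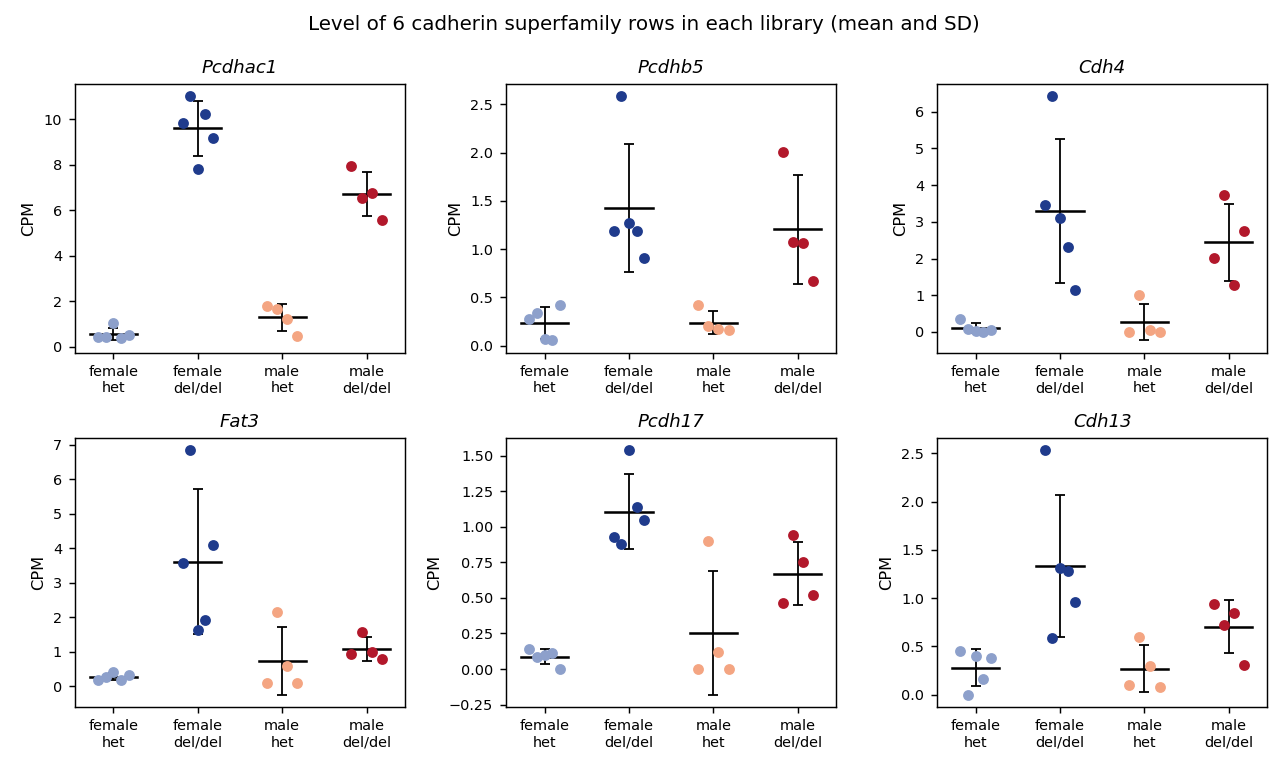
Level in CPM (y axis) of Pcdhac1, Pcdhb5, Cdh4, Fat3, Pcdh17 and Cdh13 in each of the 18 libraries, by group (x axis); points are libraries, horizontal lines are group means and bars are 1 SD. Female del/del libraries of Pcdhac1 lie between 7.81 and 11.03 CPM and female heterozygous ones between 0.386 and 1.04 CPM, and the high male heterozygous point in Cdh4, Fat3 and Pcdh17 is library 2.

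The beta cluster has 22 genes, each a single coding unit with its own promoter, and the tables hold a row for each (Pcdhb1 to Pcdhb22, chromosome 18). Reads were few and uneven along the array. Pcdhb8, Pcdhb9 and Pcdhb10 had no read in any library. Most reads in heterozygous libraries lay in the 7 rows at the 3' end, Pcdhb16 to Pcdhb22, which summed to 4.78 ± 1.04 CPM in female (SD, n = 5) and 4.52 ± 0.863 CPM in male heterozygous libraries (SD, n = 4). The 15 rows before them summed to 0.682 ± 0.321 and 0.565 ± 0.205 CPM. This division of the array was chosen after the values were seen and was not tested.

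In female del/del libraries the 22 beta rows summed to 8.85 to 14.7 CPM, above the 4.63 to 6.64 CPM of female heterozygous libraries. In males the sums overlapped, with 4.97 to 8.08 CPM in del/del and 4.05 to 6.15 CPM in heterozygous libraries. The first 15 rows summed to 2.94 ± 1.01 CPM in female and 1.96 ± 0.698 CPM in male del/del libraries, above all heterozygous libraries of either sex, the highest of which was at 1.05 CPM. Without Pcdhb5 these rows summed to 0.639 to 2.95 CPM in female del/del and 0.101 to 0.992 CPM in female heterozygous libraries, which overlapped. In males they summed to 0.517 to 1.12 CPM in del/del and 0.177 to 0.417 CPM in heterozygous libraries, with no overlap. The beta rows Pcdhb1, Pcdhb2, Pcdhb6 and Pcdhb11 had 0 reads in all 9 heterozygous libraries and 11, 6, 1 and 15 reads over the del/del libraries. The non-clustered members Cdh16, Cdh19 and Cdh26 did as well, with 1, 1 and 2 reads. The reverse held for 3 non-clustered members, Cdh7, Cdh10 and Cdh12, whose 3, 3 and 1 reads all came from male heterozygous library 2. These few reads carry no test, and the share of all rows with either pattern was not counted. Depth differed as well: male del/del libraries held 85987729 counts in all and male heterozygous libraries 59979754. In females the totals were 111341751 and 111271242.

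Pcdhb5 (ENSMUSG00000063687, chromosome 18, 37320381 to 37323913) was the beta row that passed the test. Its female heterozygous libraries were at 0.278, 0.340, 0.0673, 0.0551 and 0.421 CPM and its female del/del libraries at 1.19, 2.59, 1.27, 1.19 and 0.906 CPM. Its male heterozygous libraries were at 0.417, 0.200, 0.177 and 0.158 CPM and its male del/del libraries at 2.01, 1.08, 1.07 and 0.672 CPM. All 9 del/del libraries lay above all 9 heterozygous libraries, which 0.136% of rows tested did. It rose by 2.53 on the log2 scale over all 18 libraries (SE 0.36, adjusted p = 5.63e-04). Within females the estimate was 2.63 (SE 0.51, adjusted p = 0.0685) and within males 2.41 (SE 0.46, adjusted p = 0.183), and neither passed in the edgeR fit of 1 sex. In an edgeR fit of all 4 groups the female value was called (2.63, adjusted p = 0.0131), and DESeq2 called it in females (adjusted p = 9.23e-04) and males (adjusted p = 0.0335). The 2 estimates differed by -0.24 (SE 0.77), less than the error of the difference.

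Other beta rows did not pass the test. Pcdhb19 was at 0.168 to 0.452 CPM in female heterozygous and 0.500 to 1.34 CPM in female del/del libraries, with no overlap (log2 1.36, SE 0.44, adjusted p = 0.635), and overlapped in males. Female non-overlap of this kind, higher in del/del, was seen in 3 clustered and 4 non-clustered members and in 0.837% of all rows tested. Pcdhb16, the most abundant beta row, had means of 1.86 and 2.85 CPM in female and 1.74 and 1.79 CPM in male heterozygous and del/del libraries. Pcdhb22 had means of 1.03 and 1.90 CPM in females and 0.859 and 0.840 CPM in males. Pcdhb17 had a log2 fold change of 0.53 (SE 0.50) in females and -0.60 (SE 0.27) in males, where all 4 del/del libraries (0.584 to 0.724 CPM) lay below all heterozygous ones (0.851 to 1.41 CPM); 0.693% of rows did so in males. The interaction of sex and genotype at Pcdhb17 was not called (adjusted p = 1.0).

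**Figure D2:**
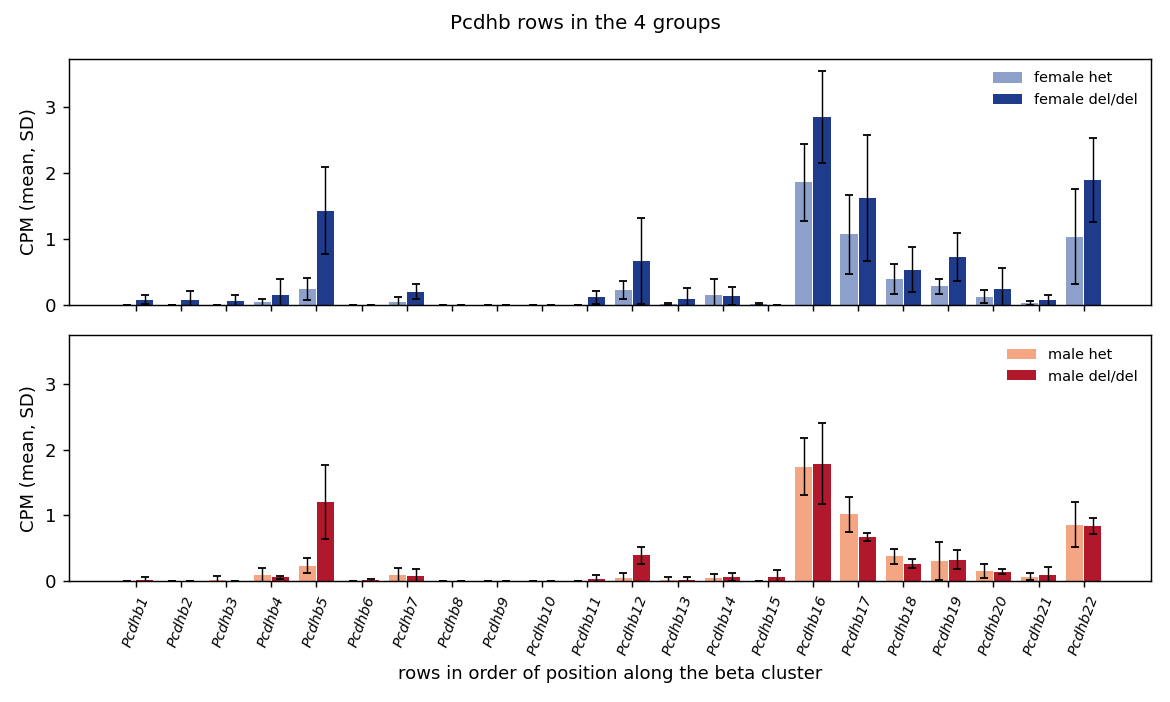
Mean CPM (y axis, bars 1 SD) of the 22 Pcdhb rows in order along the beta cluster (x axis), females above and males below, heterozygous in the light and del/del in the dark colour. Most reads lie at Pcdhb16 to Pcdhb22 and, in del/del libraries, also at Pcdhb5, whose mean is 1.43 CPM in female and 1.21 CPM in male del/del libraries.

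The gamma cluster, whose genes share constant exons as the alpha genes do, was the one clustered array with a high level in control cells. Its single row, Pcdhga11 (ENSMUSG00000023036, chromosome 18, 37674335 to 37841873), spans 22 gamma genes of GENCODE M21. It held 40.4, 41.9, 35.5, 43.5 and 39.2 CPM in female heterozygous and 34.5, 36.6, 29.4, 40.5 and 20.5 CPM in female del/del libraries. In males it held 19.6, 27.3, 18.5 and 12.4 CPM against 14.2, 15.9, 11.7 and 10.1 CPM. The groups overlapped in both sexes. The log2 fold change was -0.32 (SE 0.15) in females, -0.58 (SE 0.22) in males and -0.43 (SE 0.14, adjusted p = 0.359) over all 18 libraries, so no call was made. Its sign was opposite to that of the alpha row in all 3 comparisons. Per kilobase of annotated exon it held 0.566 CPM in female heterozygous libraries against 0.0136 CPM for the alpha row, and in female del/del libraries 0.455 against 0.236 CPM. These lengths, 70.89 kilobases for gamma and 40.76 for alpha, join the exons of all genes of a cluster. A single transcript holds only part of them, so the values understate the level per kilobase of transcript. Levels of the gamma row were higher in the female than in the male table, and sex and the deposited table cannot be told apart.

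Genes beside and between the clusters did not pass the test. Over all 18 libraries the log2 fold changes were -0.09 for Zmat2, 0.00 for Hars2 and -0.12 for Hars before the alpha cluster, -0.07 for Taf7 and 0.11 for 3222401L13Rik within the span of the clusters, and -0.04 for Diap1, -0.07 for Hdac3 and 0.07 for Rell2 after the gamma cluster. Their adjusted p-values lay between 0.801 and 1.0.

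Among classical cadherins, Cdh4 stood out. It encodes R-cadherin, known from retina and brain (ENSMUSG00000000305, mm10, chromosome 2, 179442431 to 179899373, plus strand). Its female heterozygous libraries were at 0.348, 0.0849, 0.0337, 0 and 0.0421 CPM and its female del/del libraries at 3.46, 6.43, 3.12, 2.33 and 1.15 CPM. Every del/del library was above every heterozygous library. In females it rose by 4.81 on the log2 scale (SE 0.68, adjusted p = 0.00601). In males the heterozygous libraries were at 0, 1.001, 0.0589 and 0 CPM and the del/del libraries at 2.01, 3.73, 1.29 and 2.74 CPM, again without overlap, which 1.27% of rows showed in males. The male estimate, 2.89 on the log2 scale (SE 0.80, adjusted p = 0.787), did not pass. Without heterozygous library 2, which held 20 of the 21 male heterozygous Cdh4 reads, it was 6.25 (SE 0.78, adjusted p = 0.0162). Over all 18 libraries Cdh4 rose by 3.89 (SE 0.60, adjusted p = 0.00127), and all 9 del/del libraries lay above all 9 heterozygous ones.

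Cdh13 encodes T-cadherin, which lacks a cytoplasmic part and is anchored by a lipid. Its female libraries were at 0.452, 0, 0.404, 0.165 and 0.379 CPM in heterozygous and 2.53, 0.585, 1.31, 1.28 and 0.954 CPM in del/del animals. Its male libraries were at 0.104, 0.600, 0.294 and 0.0791 CPM and at 0.934, 0.719, 0.843 and 0.310 CPM. The groups were apart in females and overlapped in males. It did not pass in the edgeR fits of all libraries without further terms (female log2 2.08, SE 0.53, adjusted p = 0.291; male 1.21, SE 0.55, adjusted p = 1.0; all 18 libraries 1.75, SE 0.41, adjusted p = 0.0693). Without male heterozygous library 2 the value over the remaining libraries was 2.05 (SE 0.41, adjusted p = 0.0140), and without female del/del library 2 it was 1.84 (SE 0.41, adjusted p = 0.0392). DESeq2 called Cdh13 in females (2.14, adjusted p = 0.0288) and over all 18 libraries (1.79, adjusted p = 0.00546).

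Fat3 is an atypical cadherin that shapes the dendrites of retinal neurons (ENSMUSG00000074505, mm10, chromosome 9, 15910205 to 16378231, minus strand). Pcdh17 is a protocadherin of the delta group, known from synapses and axons in brain (ENSMUSG00000035566, chromosome 14, 84443563 to 84537060, plus strand). They were the called non-clustered members with a promoter in the RefSeq table used (build GRCm38.p6), which runs from 250 bases before to 50 bases after a gene's start. Their promoters are shown here with those of Cdh24 and Celsr2, the other members with an entry that had the highest level per kilobase in female heterozygous libraries, so that promoters of rows low and high in control cells can be compared. CpG dinucleotides, where DNA methylation occurs, are in capitals. The windows are chr9:16502005-16502304 (minus strand) for Fat3, chr14:84443313-84443612 (plus strand) for Pcdh17, chr14:54641315-54641614 (minus strand) for Cdh24 and chr3:108415530-108415829 (minus strand) for Celsr2. The Fat3 start lies 123.8 kilobases before the 5' end of the deposited Fat3 row, so that promoter is outside the counted span.
Fat3: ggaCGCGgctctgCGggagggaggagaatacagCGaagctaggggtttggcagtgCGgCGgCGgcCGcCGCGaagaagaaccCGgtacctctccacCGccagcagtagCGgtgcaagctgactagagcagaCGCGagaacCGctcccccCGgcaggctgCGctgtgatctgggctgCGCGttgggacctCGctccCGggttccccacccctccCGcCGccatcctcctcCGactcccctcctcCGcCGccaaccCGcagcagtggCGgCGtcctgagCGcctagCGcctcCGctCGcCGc
Pcdh17: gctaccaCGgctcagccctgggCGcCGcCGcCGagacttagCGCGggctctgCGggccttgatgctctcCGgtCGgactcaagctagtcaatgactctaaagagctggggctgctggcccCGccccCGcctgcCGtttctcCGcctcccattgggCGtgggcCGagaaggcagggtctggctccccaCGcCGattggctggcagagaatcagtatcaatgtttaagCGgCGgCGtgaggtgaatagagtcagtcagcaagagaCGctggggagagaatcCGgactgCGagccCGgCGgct
Cdh24: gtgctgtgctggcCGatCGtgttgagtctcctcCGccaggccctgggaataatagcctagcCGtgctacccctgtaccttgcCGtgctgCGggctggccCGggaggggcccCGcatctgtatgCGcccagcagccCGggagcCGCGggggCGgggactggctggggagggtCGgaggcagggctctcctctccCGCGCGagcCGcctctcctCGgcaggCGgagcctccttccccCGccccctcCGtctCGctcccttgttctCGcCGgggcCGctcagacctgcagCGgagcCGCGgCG
Celsr2: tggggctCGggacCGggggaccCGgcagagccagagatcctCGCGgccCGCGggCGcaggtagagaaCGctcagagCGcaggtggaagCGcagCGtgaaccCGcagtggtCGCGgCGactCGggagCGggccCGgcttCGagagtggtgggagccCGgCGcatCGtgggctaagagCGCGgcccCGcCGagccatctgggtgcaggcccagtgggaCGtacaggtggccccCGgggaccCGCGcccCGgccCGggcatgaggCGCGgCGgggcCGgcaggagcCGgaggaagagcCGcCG

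All 4 promoters are rich in CpG. They hold 35 (Fat3), 26 (Pcdh17), 30 (Cdh24) and 40 (Celsr2) CpG dinucleotides in 300 bases, at a GC content of 71.3%, 65.0%, 73.3% and 76.3%. The median was 13 over the 27 members off chromosome 18 with an entry used here and 7 over 31396 autosomal promoters of this length. Members on chromosome 18, among them all clustered ones, were left out. Some starts used lay far from the counted row, 722.5 kilobases for Pcdh15 and 487.4 for Cdh18. Of the autosomal promoters, 93.6%, 84.0%, 89.1% and 96.4% held no more CpG than Fat3, Pcdh17, Cdh24 and Celsr2. In these 4 windows the CpG numbers of rows low in heterozygous cells (35 and 26) and of rows high in them (30 and 40) overlapped. Whether CpG number goes with level was not tested. The GC box GGGCGG, on either strand, was found in the windows of Pcdh17 and Cdh24, in 9 of the 27 members and in 36.0% of all promoters. The TATA box letters TATAAA, on either strand, were in 0 of these 4 windows, in 2 of the 27 and in 13.6% of all. The files hold no methylation data. Cdh1, Cdh4, Cdh5, Cdh13, Cdh17 and Celsr1 had no entry.

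Fat3 rose in females. Its heterozygous libraries were at 0.174, 0.255, 0.404, 0.165 and 0.337 CPM and its del/del libraries at 3.57, 6.85, 1.62, 1.92 and 4.10 CPM. The groups were apart, and the del/del libraries spread widely among themselves. The log2 fold change was 3.70 (SE 0.46, adjusted p = 0.00248). In males the heterozygous libraries were at 0.104, 2.15, 0.589 and 0.0791 CPM and the del/del libraries at 0.934, 1.57, 0.976 and 0.776 CPM, so that heterozygous library 2 exceeded every del/del library. The male log2 fold change was 0.39 (SE 0.70, adjusted p = 1.0), and without that library 1.85. Over all 18 libraries it was 2.19 (SE 0.59, adjusted p = 0.154), and without that library 3.13 (SE 0.43, adjusted p = 3.06e-04). It was called over all 18 libraries by DESeq2 (2.30, adjusted p = 0.00488) and voom (2.71, adjusted p = 0.0125). With the erythroid marker level as a covariate the female value was 3.02 (SE 0.59, adjusted p = 0.146). The interaction of sex and genotype was -3.30 (SE 0.89, adjusted p = 1.0) and, without male heterozygous library 2, -1.82 (SE 0.84).

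Pcdh17 rose in females as well. Its heterozygous libraries were at 0.139, 0.0849, 0.101, 0.110 and 0 CPM and its del/del libraries at 0.930, 0.877, 1.54, 1.14 and 1.05 CPM. The del/del libraries were close together and apart from the heterozygous ones. The log2 fold change was 3.56 (SE 0.48, adjusted p = 0.00404). In males the heterozygous libraries were at 0, 0.900, 0.118 and 0 CPM and the del/del libraries at 0.467, 0.943, 0.754 and 0.517 CPM. Library 2 lay within the del/del range while the other 3 were below it. The male log2 fold change was 1.11 (SE 0.79, adjusted p = 1.0), and without library 2 it was 3.58. Over all 18 libraries it was 2.38 (SE 0.55, adjusted p = 0.0557) and without that library 3.56 (SE 0.40, adjusted p = 2.93e-05). It was called over all 18 libraries by DESeq2 (2.51, adjusted p = 0.00258), by voom (3.09, adjusted p = 0.00140) and with the erythroid marker level as a covariate (3.51, adjusted p = 0.00669). With that covariate the female call was lost (log2 3.55, SE 0.61, adjusted p = 0.0684). The interaction was -2.42 (unadjusted p = 0.0261, adjusted p = 1.0) and, without male heterozygous library 2, 0.056 (SE 0.54).

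The nearest tested genes on either side of these 3 members were not called over all 18 libraries. Taf4a, 12.8 kilobases after Cdh4, had a log2 fold change of -0.04 (SE 0.04). Slc36a4, 167.8 kilobases from Fat3, had 0.28 (SE 0.10, adjusted p = 0.538). Olfm4, 4422 kilobases from Pcdh17, had 1.05 (SE 0.35, adjusted p = 0.415). On the other sides 9030418K01Rik, Gm5611 and Diap3 had 0.27, -0.21 and -0.18.

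**Figure D3:**
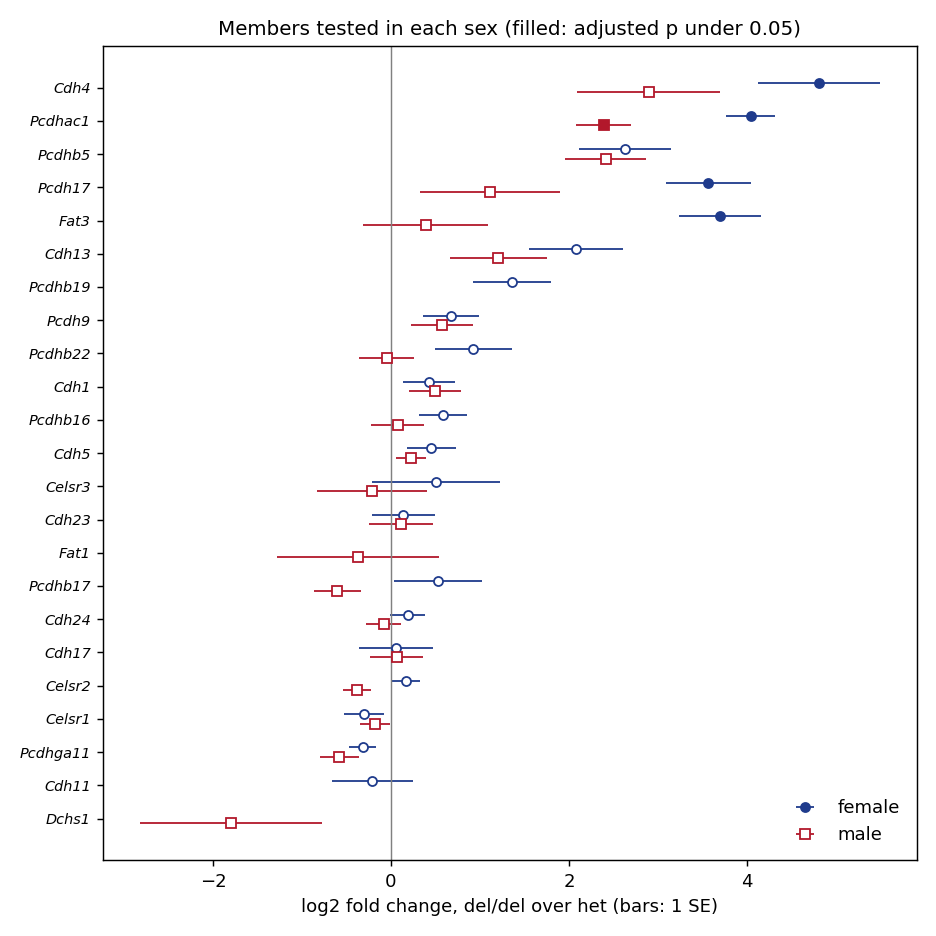
Log2 fold change of del/del over heterozygous libraries (x axis, bars 1 SE) for each member tested in females (circles) or males (squares), with members on the y axis; filled symbols have an adjusted p under 0.05. The filled symbols are Cdh4, Pcdhac1, Pcdh17 and Fat3 in females, between 3.56 and 4.81, and Pcdhac1 in males at 2.39.

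The members most abundant in control cells did not change by the test. Cdh1, which encodes E-cadherin, ranged from 12.7 to 29.1 CPM in female heterozygous and from 13.5 to 39.1 CPM in female del/del libraries, and from 5.25 to 7.99 CPM and 4.29 to 12.0 CPM in males. Cdh5, which encodes VE-cadherin of endothelium, ranged from 10.9 to 20.6 and from 12.9 to 35.3 CPM in females and from 6.59 to 11.2 and 8.45 to 11.2 CPM in males. The groups overlapped throughout. Log2 fold changes over all 18 libraries were 0.46 for Cdh1 (SE 0.22, adjusted p = 0.738) and 0.36 for Cdh5 (SE 0.18, adjusted p = 0.773). Female del/del libraries 1, 3 and 5 had the highest Cdh5 levels and, with female heterozygous library 1 (4726 CPM), the highest plasmacytoid dendritic marker sums (4767, 4677 and 5003 CPM). A covariate of the mean log2 CPM of these markers, not their sum, was chosen after seeing the data. With that covariate the values over all 18 libraries were -0.11 for Cdh1 (SE 0.10) and -0.018 for Cdh5 (SE 0.14). The 12 endothelial markers summed to 306 to 337 and 290.1 to 335 CPM in female and 316 to 352 and 305 to 335 CPM in male heterozygous and del/del libraries. In female heterozygous libraries Pecam1, which B cells also express, was at 279.5, Eng at 27.7 and Egfl7 at 11.9 CPM, and the other 9 ranged from 0.0450 (Cldn5) to 1.62 CPM (Kdr). None of the 12 was at 0 in a whole group, and the part of endothelial RNA in the Cdh5 level was not tested.

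Celsr1 and Celsr2, seven-pass cadherins of planar polarity, were also present in every library. Celsr2 ranged from 13.1 to 22.8 CPM in female heterozygous and 18.5 to 26.3 CPM in female del/del libraries, and from 14.4 to 24.4 and 13.3 to 17.1 CPM in males. Its log2 fold change was 0.17 (SE 0.16) in females and -0.38 (SE 0.16) in males, and the difference of -0.56 (SE 0.24, unadjusted p = 0.0296) did not pass the adjustment over all rows. Celsr1 ranged from 11.02 to 23.2 and 8.35 to 15.9 CPM in females and from 11.7 to 18.3 and 10.3 to 15.6 CPM in males. Celsr3 had means of 0.704 and 0.981 CPM in females and 1.43 and 1.29 CPM in males, with 3.70 CPM in male heterozygous library 2 and 0.625 to 0.765 CPM in the other male heterozygous libraries. Its male log2 fold change was -0.21 (SE 0.61), and without that library 0.92 (SE 0.45, adjusted p = 1.0).

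Of the other members with a mean of at least 1 CPM, Cdh24 ranged from 6.45 to 13.2 and 8.99 to 13.8 CPM in females and from 6.57 to 10.2 and 5.74 to 9.90 CPM in males. Cdh17, which encodes LI-cadherin of liver and gut, known also in B cells, ranged from 2.78 to 4.63 and 0.626 to 6.06 CPM in females and from 4.75 to 9.89 and 4.18 to 9.87 CPM in males. Pcdh9, a protocadherin of the delta group, had means of 1.98 and 3.16 CPM in females and 0.980 and 1.42 CPM in males (log2 0.64 over all 18 libraries, SE 0.24, adjusted p = 0.529). Female del/del library 2 held 6.01 CPM of Pcdh9 and the other female del/del libraries held 2.15 to 2.81 CPM. None of these passed the test.

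Mean levels per kilobase of annotated exon were ordered for rows of single genes. In female heterozygous libraries the highest were Cdh1 (4.04 CPM), Cdh5 (3.99 CPM), Cdh24 (2.97 CPM), Celsr2 (1.58 CPM), Celsr1 (1.39 CPM) and Cdh17 (0.799 CPM). The gamma row (0.566 CPM) has no place in this order, because its length joins the exons of all 22 gamma genes. Cdh1 and Cdh5 differed by less than their spread over libraries. In male heterozygous libraries Cdh24 was at 2.56, Cdh5 at 2.06, Celsr2 at 1.65, Cdh17 at 1.56 and Cdh1 at 1.44 CPM per kilobase. In female del/del libraries the called rows of single genes stayed below these levels. Cdh4 was at 0.454, Pcdhb5 at 0.404, Fat3 at 0.168 and Pcdh17 at 0.0852 CPM per kilobase. The alpha row was at 0.236 CPM per kilobase over 40.76 kilobases, the joined exons of all 14 alpha genes. A single alpha transcript holds only part of that length, so this value cannot be ranked with the others.

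**Figure D4:**
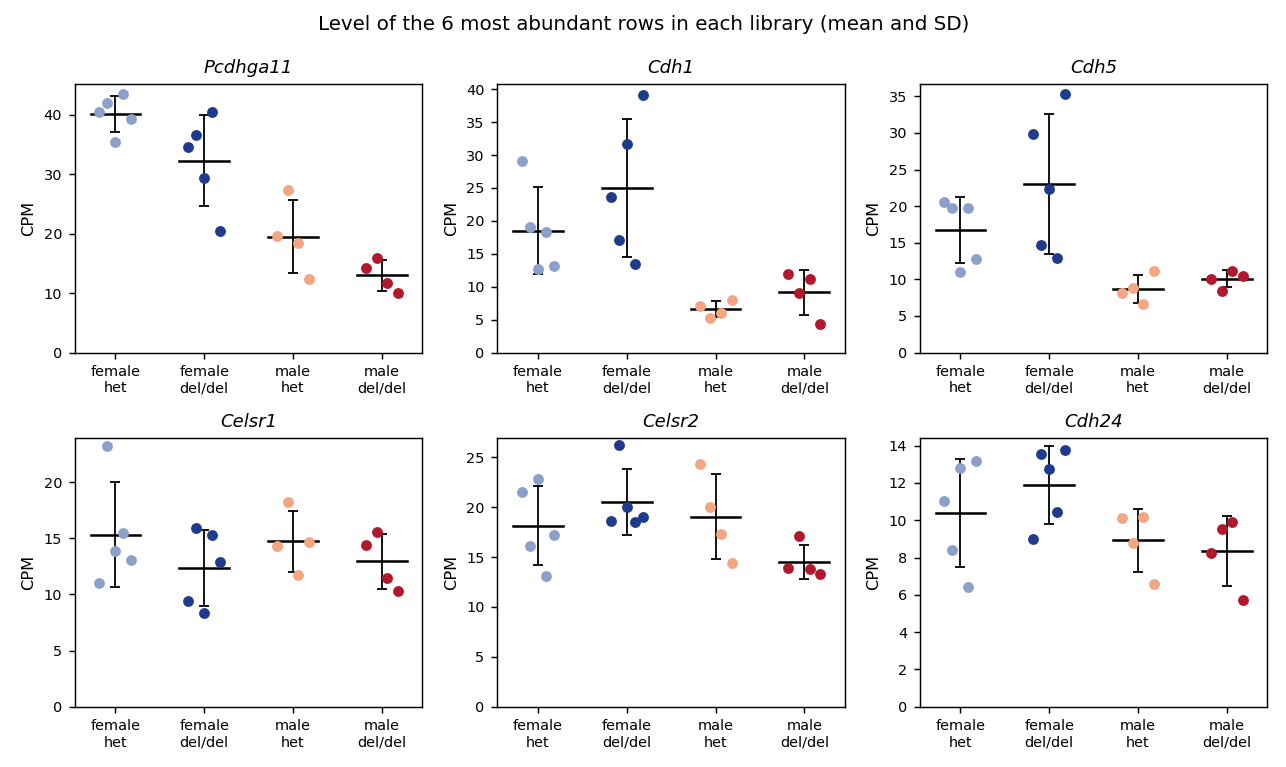
Level in CPM (y axis, from 0) of Pcdhga11, Cdh1, Cdh5, Celsr1, Celsr2 and Cdh24 in each of the 18 libraries by group (x axis); points are libraries, lines are means and bars are 1 SD. The heterozygous and del/del libraries of each sex overlap in all 6 rows, and the means of Pcdhga11, Cdh1 and Cdh5 are lower in the male table.

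A last group of members had its highest value in male heterozygous library 2. Cdh2, which encodes N-cadherin, was at 6.25 CPM there and at 0, 0.353 and 0 CPM in the other male heterozygous libraries, and its highest value elsewhere was 0.629 CPM. Dchs1, the Dachsous ligand of Fat4, was at 4.75 CPM there and at most 0.853 CPM elsewhere. Fat4 was at 2.65 CPM there and at most 0.764 CPM elsewhere. Fat1, Pcdh10, Cdh11 and Pcdh8 were at 2.65, 1.70, 1.90 and 1.20 CPM in it. None of these was called in a comparison that tested it. The log2 fold change over all 18 libraries was -1.03 for Cdh2 (SE 0.88) and -1.67 for Dchs1 (SE 0.80), and without this library it was 0.73 (SE 0.65) and 0.20 (SE 0.75). Fat4 was at 0 to 0.236 CPM in female heterozygous and 0.308 to 0.502 CPM in female del/del libraries but had too few reads to enter the female test. Its log2 fold change over all 18 libraries was 0.36 (SE 0.65). Without male heterozygous library 2 it was 1.65 (SE 0.51, edgeR adjusted p = 0.256).

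Partner genes were read from 6 lists. Of 11 tested partners of clustered protocadherins, 1 rose over all 18 libraries, where 0.535% of all rows tested were called higher. This was Ptk2, the focal adhesion kinase, which binds and is inhibited by alpha and gamma protocadherins: its log2 fold change was 0.88 (SE 0.13, adjusted p = 9.88e-04), with 1.06 in females (SE 0.20, adjusted p = 0.0535) and 0.67 in males (SE 0.13, adjusted p = 0.185). Its relative Ptk2b, known as Pyk2, had -0.12 (SE 0.05, adjusted p = 0.567). No gene was called among 19 tested regulators of the clusters such as CTCF, cohesin and DNA methyltransferases, where the genes of smallest p were Dnmt3a at -0.09 (SE 0.04, adjusted p = 0.731) and Smc3 at -0.16 (SE 0.08, adjusted p = 0.743). The list median was -0.07, with 2 of 19 genes above 0, beside -0.0005 and 49.9% over all rows.

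Among 12 tested catenins and adherens junction genes none passed. Pkp2, a plakophilin of desmosomes, was at 1.49 on the log2 scale (SE 0.37, adjusted p = 0.0929), and Ctnnal1 had -0.16 (SE 0.09). Among 15 tested genes that act with Fat and Dachsous in the Hippo pathway none passed, with Frmd6 at -0.31 (SE 0.12) and the kinase Stk3 at -0.21 (SE 0.09). Among 14 tested planar polarity genes none passed, with Daam1 at 0.21 (SE 0.08) and Ankrd6 at -0.28 (SE 0.12). Among 4 tested genes of other cadherin families (desmosomal cadherins, calsyntenins and Ret among 18 listed) none passed, with the calsyntenins Clstn3 at -0.78 (SE 0.54) and Clstn1 at 0.17 (SE 0.15). The medians of these 4 lists were -0.01, -0.02, 0.09 and -0.04. At an unadjusted p under 0.05 edgeR gave 1, 2, 2 and 0 of their genes, and 6.76% of all rows.

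The authors' deposited table for females held 21 members, of which Pcdhac1, Fat3, Pcdh17 and Cdh4 had an adjusted p under 0.05, and the authors' deposited table for males held 21 members, of which Pcdhac1 did. For Pcdhac1 the authors' deposited table gave a log2 fold change of 4.06 in females and 2.39 in males.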

How the data were processed

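PolyA RNA libraries of sorted cells, 18 in all, were analysed. Raw counts of reads, 1 table for each sex, were deposited by the authors, with log2 fold changes and p-values of their own comparison. The submitters' processing notes name TopHat, Trim Galore, FastQC, bcl2fastq and edgeR 3.32.1, and the builds mm10 and GRCm38. The counting program, annotation and strand setting are not given in the sources used here. The 4 columns of group means were not used.

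The deposited counts entered the quasi-likelihood test of edgeR 4.0.16 (R 4.3.3): filterByExpr defaults (minimum count 10, minimum total 15), TMM scaling and Benjamini-Hochberg adjustment over all rows, called under 0.05. Positive log2 fold changes mean higher in del/del. The SE is the log2 fold change divided by the square root of F. Fits were made per sex, over all 18 libraries with sex as a covariate, and for the interaction. CPM use 1 scale for all 18 libraries. The fit was tested on simulated data. DESeq2 1.42.0, voom (limma 3.58.1), other filters, scalings, covariates and left-out libraries were alternatives. A marker level used as a covariate was the mean log2 CPM of the markers, not their summed CPM. The 56 rows without a gene ID stayed in the fits. No duplicate libraries were found. Exon lengths came from GENCODE M21. For the alpha and gamma rows the exons of all genes of the cluster were joined.

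Members and lists were chosen with earlier results of these data known. Named members were those called, those at a mean of 1 CPM or more in a group, and the 2 of smallest p per family. From each partner list the called genes or, with none called, the 2 of smallest p were named. Ptk2b, Fat1, Pcdh10, Cdh11, Pcdh8, the neighbouring genes and the members named for single reads were chosen after their values were seen.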

Additional observations from a re-analysis of the deposited data

Results flagged for a closer look

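In groups of 4 or 5 libraries, 88 groups of named members were examined for a library far from the others, and 18 single libraries were found, all of them high. The critical values are set so that chance flags about 1 in 20 groups, a rate that was not checked for rows with this few reads. Male heterozygous library 2 gave 6 of these values: 1.001 CPM of Cdh4 (others 0 to 0.0589), 0.900 CPM of Pcdh17 (0 to 0.118), 4.75 CPM of Dchs1 (0.158 to 0.521), 3.70 CPM of Celsr3 (0.625 to 0.765), 6.25 CPM of Cdh2 (0 to 0.353) and 2.65 CPM of Fat4 (0 to 0.353). The stromal, neural and erythroid marker sums of that library were also the highest among male heterozygous libraries, and their part in these values was not tested.

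Female del/del library 2 was high in Pcdhb5 (2.59 CPM, others 0.906 to 1.27), Celsr2 (26.3 CPM, others 18.5 to 20.04) and Pcdh9 (6.01 CPM, others 2.15 to 2.81). Among female heterozygous libraries, library 1 was high in Cdh4 (0.348 CPM), library 3 in Pcdhac1 (1.04 CPM) and library 4 in Dchs1 (0.110 CPM, others at 0). Female del/del library 4 held 0.0456 CPM of Dchs1, a single read, with the others at 0.

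Male heterozygous library 1 was high in Pcdhb5 (0.417 CPM) and library 3 in Pcdhb17 (1.41 CPM). Male del/del library 1 was high in Pcdhb16 (2.71 CPM), library 2 in Celsr2 (17.1 CPM) and library 3 in Celsr3 (2.40 CPM).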

How the results depend on the processing

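Of 1309 values of named members under alternatives, 1220 kept their direction and side of the threshold, 10 lost a call, 17 gained one and 62 changed sign. The cause was not tested for any of these. With DESeq2, clustered members called were 2 in females and 2 in males, non-clustered members over all 18 libraries 4, genes of the partner lists 2, and all rows 92, 49, 141 and, in the interaction, 4. With all 4 groups in 1 fit, 2 clustered members and 58 rows were called in females.

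With voom 3 non-clustered members were called over all 18 libraries. Signs changed there for Cdh17 (-0.25 in females, -0.089 over all 18), Celsr3 (-0.49 in females, 0.028 in males, -0.23 over all 18), Cdh2 (0.34 over all 18) and Pcdhb17 (-0.024 over all 18).

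With the erythroid level as a covariate, 1 non-clustered member and 16 rows were called in females and 2 non-clustered members over all 18 libraries. Signs changed for Celsr2 (-0.16), Celsr1 (0.047), Cdh24 (-0.13) and Pcdhb17 (-0.32) in females, for Celsr3 (0.66), Cdh17 (-0.032) and Pcdhb16 (-0.080) in males, and for Cdh2 (0.68), Cdh24 (-0.050) and Pcdhb17 (-0.25) over all 18.

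With the plasmacytoid level, 0 clustered members and 5 rows were called in males. Signs changed for Cdh5 (-0.038), Cdh1 (-0.085), Cdh17 (-0.18), Celsr3 (-0.67) and Pcdhb17 (-0.048) in females, for Cdh1 (-0.38) and Pcdhb16 (-0.28) in males, and for Cdh5 (-0.018), Cdh1 (-0.11), Cdh17 (-0.054), Celsr3 (-0.67) and Pcdhb17 (-0.39) over all 18.

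Leaving out 1 library gave 0 to 1 clustered and 0 to 1 non-clustered members and 5 to 22 rows in males, and 1 to 4 non-clustered members over all 18 libraries. Ranges that crossed 0 were, in females, Cdh17 (-0.18 to 0.34) and Celsr3 (-0.082 to 0.84). In males they were Cdh17 (-0.12 to 0.29), Cdh24 (-0.20 to 0.058), Celsr3 (-0.70 to 0.92), Dchs1 (-2.34 to 0.40), Pcdhb16 (-0.20 to 0.19) and Pcdhb22 (-0.20 to 0.26). Over all 18 they were Cdh17 (-0.063 to 0.20), Cdh2 (-1.26 to 0.73), Cdh24 (-0.0079 to 0.14), Celsr3 (-0.14 to 0.66), Dchs1 (-2.11 to 0.20) and Pcdhb17 (-0.093 to 0.20), and in the interaction Cdh4 (-3.38 to 1.496), Pcdh17 (-2.76 to 0.056) and Pcdhb5 (-0.61 to 0.095). The upper ends of male Celsr3, of Dchs1 and Cdh2, and of the Cdh4 and Pcdh17 interactions came without male heterozygous library 2.

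The labels state no pairs. Pairs were formed by the rank of the animal number within each group, so a pair is not always the nearest numbers. They correlated by -0.0311 to 0.297 in their deviations, and not all exceeded 0.1. With these pairs as a replicate block, 3 non-clustered members were called over all 18 libraries, with Pcdh17 (adjusted p = 0.0327) and Cdh13 (0.0344) added, and female Pcdh17 had an adjusted p of 0.0582. Signs changed under the block for Cdh17 (-0.11 in females, -0.034 over all 18) and male Celsr3 (0.078). Rows of few reads are limited by depth: 1 CPM was worth as few as 9.60 reads.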
